A study of Bos taurus with 20 samples.

Results

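The proteasome genes of cattle skeletal muscle were followed across 20 bulls that differed in the fat content of the muscle. Members were the genes whose platform symbol matches PSM, a letter from A to G and a digit, taken only from probe sets with 1 gene symbol, and each gene was represented by its probe set with the highest mean signal. The rule found 40 genes among the 9155 genes that had a probe set of 1 symbol, and all 40 passed the filter on low signal and were among the 14409 probe sets tested. Of these, 39 code for proteasome subunits, activators, the inhibitor or assembly factors, and PSME3IP1 codes for a protein that binds an activator and is no subunit. The NCBI RefSeq gene table for cattle (ARS-UCD2.0) lists 50 symbols of this form. The 10 that were not measured here by a probe set of 1 symbol were PSMA2, PSMA8, PSMB11, PSMC3IP, PSMD3, PSMD7, PSMD8, PSMD12, PSME3 and PSMG4.

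The study compared Musculus longissimus dorsi, the long muscle of the back, of bulls whose intramuscular fat (IMF), fat stored inside the muscle, was high or low. All animals were F2 crosses of the dairy breed Holstein with the beef breed Charolais, and each IMF group held 10 bulls with an array apiece. The labels give no age, diet or treatment. In the titles, 5 animals of each IMF group have a number with an S before it and 5 have a number alone. These sets are called the S and the no S title series here, and no label explains the letter. Values are log2(value + 1) of the deposited probe set intensity, differences are in these log2 units, and a level of 1 probe set cannot be set against that of another.

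The proteasome is the protease that breaks down proteins tagged with ubiquitin. Its core particle is a barrel of alpha rings, which hold the gate, and beta rings, which hold the cutting sites, and regulatory particles on its ends bind, unfold and feed in the substrate. In skeletal muscle the ubiquitin-proteasome system removes myofibrillar proteins and is best known for its part in muscle wasting. Cells of the immune system, and other cells under interferon, exchange the cutting subunits PSMB5, PSMB6 and PSMB7 for PSMB8, PSMB9 and PSMB10, which form the immunoproteasome and make peptides for display on MHC class I.

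Checked against the tissue label, 8 genes of skeletal muscle fibres, among them ACTA1, CKM, MYH1 and MYH7, were bright in every group, with means between 12.79 and 14.11. Median array signals lay between 51.6 and 67.6, with zeros making up 0.462% to 1.05% of an array's values. The title series also differed in hybridization controls that are added to the RNA or the labelled sample: the BioB signal ran from 204 to 355 on the S arrays and from 397 to 482 on the others, with no overlap. The 3' minus 5' difference of the actin control (log2) had a mean of -0.40 on the S and -0.20 on the no S arrays, with overlap. Albumin, a liver transcript, gave a signal over 2000 on 4 arrays, those of low IMF replicate 3 (no S) and high IMF replicates 6, 8 and 10 (S). On the remaining arrays it ran from 1244 to 1569 in S and from 504 to 812 in no S. For the IMF and the title series comparisons, counts of members, calls lost and signs changed are given without the 4 arrays over 2000 as well. The differences within the S series and the interaction were not refitted without them.

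High and low IMF muscle did not differ in any proteasome gene after adjustment. The test was limma with title series as a covariate, two-sided, with p-values adjusted by the Benjamini-Hochberg method over all 14409 probe sets and a threshold of 0.05. It called 0 of 40 members, against 0% of all probe sets tested. At an unadjusted p under 0.05 it found 2 of 40 members (5%), PSME4 and PSMB9, against 7.34% of all probe sets. That small count moved with the processing. It was 4 of 40 (10%) with arrays centred on their medians, with quantile normalization and with 60% of the probe sets left out as dim, against 7.90%, 8.74% and 7.80% of the probe sets tested there. It was also 4 without either of low IMF replicates 6 and 10, and 1 without either of low IMF replicates 8 and 9 or without the 4 albumin-rich arrays. The methods' t-test, run unpaired without the title series, found 1 member at an unadjusted p under 0.05 and 0 after adjustment. The ranges of the 10 high and the 10 low IMF animals overlapped for all 40 genes. Within the no S series the 5 high IMF animals lay wholly above the 5 low IMF animals for 2 members (5%), PSMB6 and PSMC5, against 0.514% of all probe sets, and wholly below for 0 members (background 0.0763%). Within the S series the groups of 5 overlapped for all 40, while 0.153% of all probe sets were wholly above and 1.18% wholly below. The differences were small, from -0.23 for PSMB9 to 0.18 for PSMG1, and the members' median was 0.028 against -0.029 for all probe sets tested. In direction, 26 of 40 members (65%) were higher in high IMF, against 40.2% of all probe sets. That count rested on the scaling between arrays, since it was 34 of 40 with the arrays centred on their medians. Centring raised the median of all probe sets as well, to 0.010. The members' median lay 0.057 above that of all probe sets. Centring moves the difference of every probe set by the same amount, so it cannot change this gap. With quantile normalization the gap was 0.035.

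**Figure D1:**
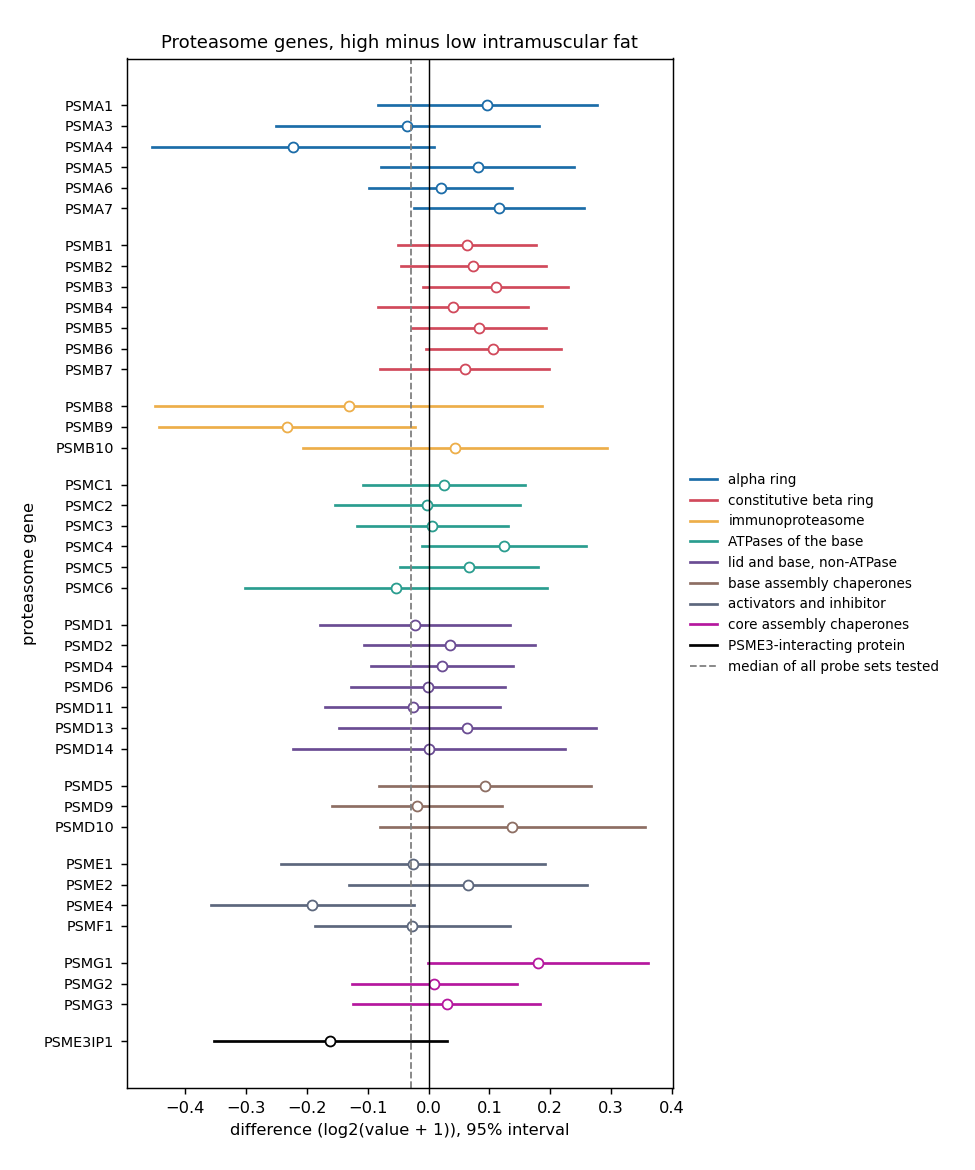
Difference between high and low IMF for each of the 40 genes (x axis, log2(value + 1) units, high minus low), grouped and coloured by role, with 95% intervals from limma with title series as a covariate, n = 10 per group. All points are open because no gene passed the adjusted threshold. The 7 constitutive beta ring genes lie to the right of 0, and PSMB9 and PSME4 have intervals wholly to its left.

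The measured genes of the constitutive beta ring all had higher means in high IMF. Their 7 differences ran from 0.040 to 0.11, with a median of 0.074, and none passed the adjusted threshold. PSMB6, the subunit that cuts after acidic residues, had lowest, median and highest values of 11.87, 12.04 and 12.23 in high IMF and 11.67, 11.90 and 12.21 in low IMF. Over both title series the high IMF animals thus sat slightly higher within an overlapping range, with 7 of 10 above the low IMF median and a difference of 0.11 (SE 0.054, adjusted p = 0.676). Within the no S series alone, PSMB6 ran from 11.87 to 12.02 in high IMF and from 11.67 to 11.85 in low IMF with no overlap, a difference of 0.14. PSMB3, a beta subunit without a cutting site, ran through 11.36, 11.77 and 12.10 in high IMF and 11.31, 11.61 and 12.01 in low IMF, a difference of 0.11 (95% interval -0.0097 to 0.23). For PSMB5, which carries the chymotrypsin-like site, the values were 12.12, 12.20 and 12.33 in high IMF and 11.96, 12.14 and 12.35 in low IMF, a difference of 0.083 (95% interval -0.028 to 0.19). Here too the groups overlapped almost completely. PSMB7, which carries the trypsin-like site, ran through 10.79, 11.08 and 11.21 in high IMF and 10.79, 11.01 and 11.19 in low IMF, and its difference was 0.060 (95% interval -0.079 to 0.20). The remaining genes differed by 0.063 for PSMB1, 0.074 for PSMB2 and 0.040 for PSMB4. The 7 genes were measured on the same arrays and varied together from animal to animal, so their shared direction is not 7 separate observations. Within the S title series 6 of the 7 were higher, PSMB4 being the exception at -0.015, and within the no S series all 7 were.

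The alpha ring was mixed, with 4 of 6 genes higher and a median of 0.050. PSMA4 had the lowest difference of the class. Its values were 9.07, 9.50 and 9.96 in high IMF and 9.17, 9.65 and 10.13 in low IMF, a difference of -0.22 (SE 0.11, adjusted p = 0.676), and it was lower in high IMF within the S series (-0.16) and within the no S series (-0.29). PSMA7 pointed the other way, with 12.06, 12.38 and 12.62 in high IMF, 11.92, 12.27 and 12.60 in low IMF and a difference of 0.11 (95% interval -0.025 to 0.25). The other alpha genes differed by 0.096 (PSMA1), 0.080 (PSMA5), 0.020 (PSMA6) and -0.035 (PSMA3).

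Among the immunoproteasome subunits, PSMB8 and PSMB9 had lower values in most high IMF animals and PSMB10 did not. PSMB9 ran through 7.32, 7.62 and 8.12 in high IMF and 7.63, 7.91 and 8.47 in low IMF, so that 8 of 10 high IMF animals lay below the low IMF median while the ranges overlapped. The difference was -0.23 (SE 0.10), with an unadjusted p of 0.0318 and an adjusted p of 0.676 in limma, and it was -0.30 within the S and -0.17 within the no S series. By animal, the S series gave 7.40, 7.53, 7.88, 7.95 and 8.12 in high IMF and 7.86, 7.96, 8.03, 8.06 and 8.47 in low IMF, and the no S series gave 7.32, 7.46, 7.53, 7.71 and 7.89 in high IMF and 7.63, 7.68, 7.72, 7.75 and 7.96 in low IMF. A single low IMF animal of the S series held the top value of all 20. PSMB8 had a wider spread, with 6.03, 6.70 and 7.55 in high IMF and 5.78, 7.09 and 7.35 in low IMF. Its difference was -0.13 (95% interval -0.45 to 0.19), and 8 of 10 high IMF animals lay below the low IMF median. PSMB10 ran through 7.79, 8.07 and 8.31 in high IMF and 7.10, 8.08 and 8.48 in low IMF, a difference of 0.044 (95% interval -0.21 to 0.29), and the lowest value of the low IMF group, in replicate 2, stood apart from the other 9. Without that animal the PSMB10 difference was -0.052.

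Most tested markers of leukocytes were lower in high IMF, as PSMB8 and PSMB9 were, and so were 8614 of all 14409 probe sets tested. The general leukocyte markers PTPRC and LAPTM5 were both lower in high IMF, at -0.32 and -0.25, 4 of 5 tested macrophage markers were lower (median -0.20), and 3 of 5 tested lymphocyte markers were (median -0.057). None of these genes passed the adjusted threshold, and no marker was at 0 on any array. Summed over all markers of a list on the array, the signal of the macrophage markers was 366 to 1134 in high IMF and 344 to 1172 in low IMF, that of the leukocyte markers 159 to 365 and 137 to 387, and that of the lymphocyte markers 427 to 683 and 435 to 678. Other cell types moved too, and no gene of theirs passed the adjusted threshold for IMF. Of 6 tested adipocyte markers 5 were higher in high IMF with a median of 1.19, 4 of the 6 at an unadjusted p under 0.05, and the summed adipocyte signal was 1728 to 23345 in high and 1226 to 10141 in low IMF. All 6 fibroblast markers were higher in high IMF (median 0.21, summed signal 8199 to 18028 and 6418 to 25167) and all 5 tested endothelial markers lower (median -0.18, 1138 to 1805 and 1258 to 2007). The part of these cell types in the members' values was not tested, and in whole muscle fewer cells of a type and less RNA per cell cannot be told apart.

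**Figure D2:**
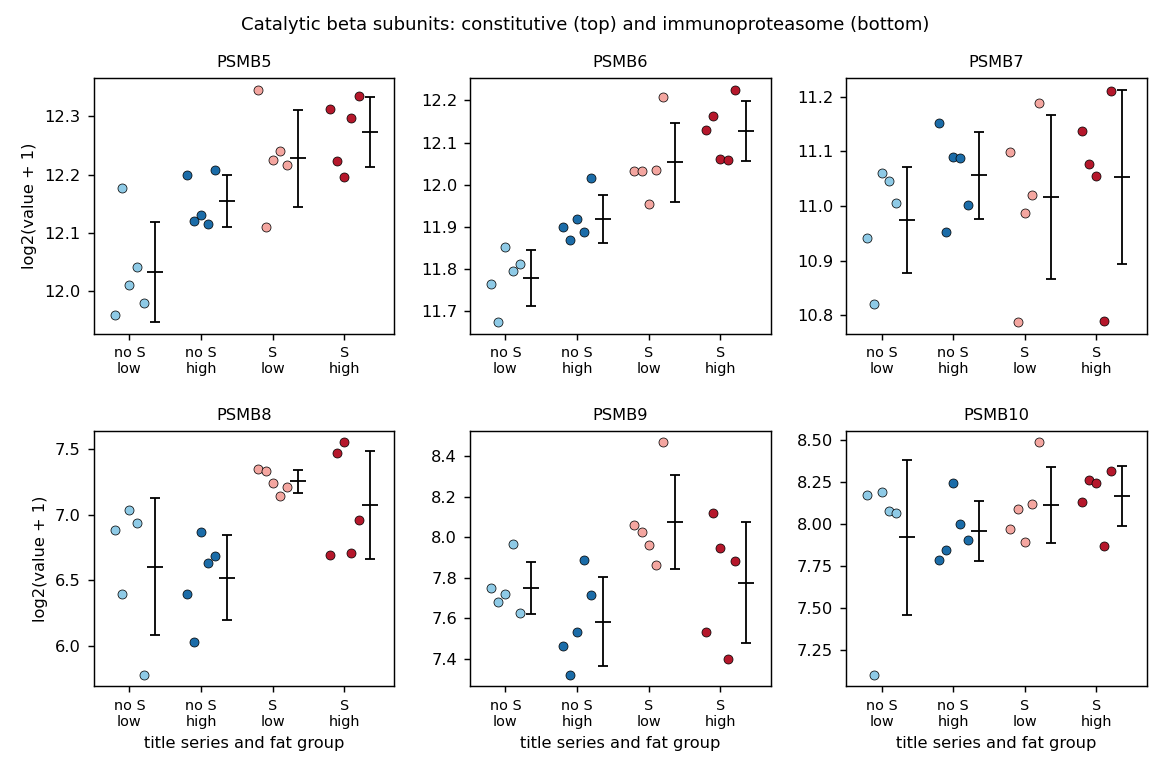
Values of the cutting subunits in each animal (y axis, log2(value + 1)) by title series and IMF group (x axis, 5 animals each), with the constitutive subunits above and the immunoproteasome subunits below. Each point is 1 animal and the bars give the mean and SD of the 5. Within each title series the IMF groups of 5 overlap in every panel except that of PSMB6 in the no S series, and PSMB8 sits higher in the S series, with a difference of 0.60.

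In the regulatory particle the ATPases, which unfold the substrate, had a median difference of 0.016, with 4 of 6 genes higher in high IMF. PSMC4 ran through 9.46, 10.12 and 10.64 in high IMF and 9.30, 10.03 and 10.54 in low IMF, with the animals split by title series, and its difference with title series in the model was 0.12 (95% interval -0.010 to 0.26). PSMC5 had values of 11.05, 11.09 and 11.25 in high IMF and 10.87, 11.05 and 11.29 in low IMF. Although 9 of 10 high IMF animals lay above the low IMF median, its difference was only 0.067 (95% interval -0.047 to 0.18), and it was 0.15 within the no S and -0.017 within the S series. The others differed by 0.025 (PSMC1), -0.0021 (PSMC2), 0.0061 (PSMC3) and -0.054 (PSMC6). Among the 7 lid and base subunits without ATPase activity, which recognise and trim ubiquitin chains and hold the particle together, 4 were higher and the median was 0.00083. PSMD13, a lid subunit, ran through 8.33, 8.61 and 9.06 in high IMF and 8.15, 8.53 and 8.87 in low IMF, a difference of 0.063 (95% interval -0.15 to 0.27). PSMD2, a large scaffold of the base, ran through 10.42, 10.77 and 11.10 and 10.28, 10.69 and 11.06 with a difference of 0.034 (95% interval -0.11 to 0.17). The remaining 5 lay between -0.026 for PSMD11 and 0.022 for PSMD4, with PSMD14, the deubiquitinase of the lid, at 0.00083, PSMD1 at -0.022 and PSMD6 at -0.00057.

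Assembly factors and activators showed the same lack of called differences. PSMG1, a chaperone that starts the alpha ring, had the highest difference of all members. Its values were 9.49, 9.74 and 10.10 in high IMF and 9.26, 9.53 and 9.93 in low IMF, with 9 of 10 high IMF animals above the low IMF median, and the difference was 0.18 (SE 0.087, adjusted p = 0.676). It was 0.31 within the no S series and 0.051 within the S series. PSMG3, another core chaperone, ran through 7.55, 7.95 and 8.44 and 7.44, 7.89 and 8.52 (high and low IMF), a difference of 0.030, and PSMG2 differed by 0.0090. The base chaperone PSMD10, also known as gankyrin, ran through 7.58, 8.11 and 8.40 in high IMF and 7.59, 7.88 and 8.38 in low IMF, a difference of 0.14 (95% interval -0.080 to 0.36). For the base chaperone PSMD5 the values were 8.56, 9.10 and 9.48 and 8.45, 8.94 and 9.28, a difference of 0.093, and for PSMD9 the difference was -0.018.

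PSME4, the single-chain activator known as PA200, had the smallest unadjusted p of the members. Its values were 10.25, 10.70 and 11.20 in high IMF and 10.46, 10.89 and 11.31 in low IMF, and the difference was -0.19 (SE 0.080), with an unadjusted p of 0.0270 and an adjusted p of 0.676 in limma. Within the S series, high IMF animals had 10.25, 10.34, 10.39, 10.42 and 10.55 and low IMF animals had 10.46, 10.68, 10.81, 10.87 and 10.88, a difference of -0.35. In the no S series the values were 10.86, 10.92, 10.99, 11.07 and 11.20 in high IMF and 10.90, 10.98, 11.00, 11.02 and 11.31 in low IMF, a difference of -0.033. The difference between the series was -0.32 (SE 0.15, unadjusted p = 0.0448, adjusted p = 0.866 in limma's interaction fit), so the contrast between the series did not pass. PSME1 and PSME2, which form the interferon-induced activator ring, differed by -0.026 and 0.064. PSME2 ran through 9.49, 9.70 and 10.02 in high IMF and 9.19, 9.66 and 10.08 in low IMF. PSMF1, the inhibitor of the core particle, differed by -0.027. PSME3IP1 ran through 7.91, 8.25 and 8.44 in high IMF and 8.06, 8.34 and 8.72 in low IMF. For this gene 9 of 10 high IMF animals lay below the low IMF median, with a difference of -0.16 (95% interval -0.35 to 0.030).

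The IMF differences were lower within the S than within the no S series, among the proteasome genes as over the whole array. Within the no S series 34 of 40 members were higher in high IMF, with a median of 0.077 against 0.0098 for all probe sets. Within the S series 19 of 40 were, with a median of -0.0071 against -0.079. The interaction was below 0 for 34 of 40 members (median -0.094) and for 9992 of the 14409 probe sets (median -0.11). It passed the adjusted threshold for 0 members, against 0% of all probe sets, and an unadjusted p under 0.05 for 1 member, PSME4, against 5.34%. The 2 arrays with the lowest median signal, those of high IMF replicates 6 and 9, both lie in the S series. Without them the IMF median over both series was 0.010 for all probe sets and 0.050 for the members. The part of these 2 arrays in the lower differences within S was not tested.

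Proteasome genes differed more between the title series than between the IMF groups, with a median absolute difference of 0.24 against 0.061. So did all probe sets tested, at 0.42 against 0.087. Between the S and the no S series limma called 26 of 40 members (65%) with IMF as a covariate, against 68.3% of all probe sets tested, so a call was about as frequent among the members as on the array. Of these, 17 (42.5%) were higher in S, against a background of 33.4%, and 9 (22.5%) were lower, against 34.8%. Over the 7016 genes with 1 tested probe set each, which are annotated as the members are, 40.7% were called higher and 29.5% lower, with a median difference of 0.11 against 0.12 for the members. The median absolute difference over all probe sets was 0.42, and the median residual SD between animals was 0.14 for the members and 0.25 for all probe sets. On the S arrays 7 members were above all 10 no S arrays (10.4% of all probe sets were) and 3 were below them all (9.27%). Without the 4 arrays with high albumin 20 members (50%) were called, 11 of them higher, against 61.4% of all probe sets. Without the 2 arrays with the lowest median signal 27 were called (background 67.9%), and without the 2 S arrays with the highest BioB signal 25 (background 66.2%). The hybridization controls and, outside the 4 albumin-rich arrays, the albumin signal differed between the series as given above. The series hold different animals, and animals and array handling cannot be told apart here.

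**Figure D3:**
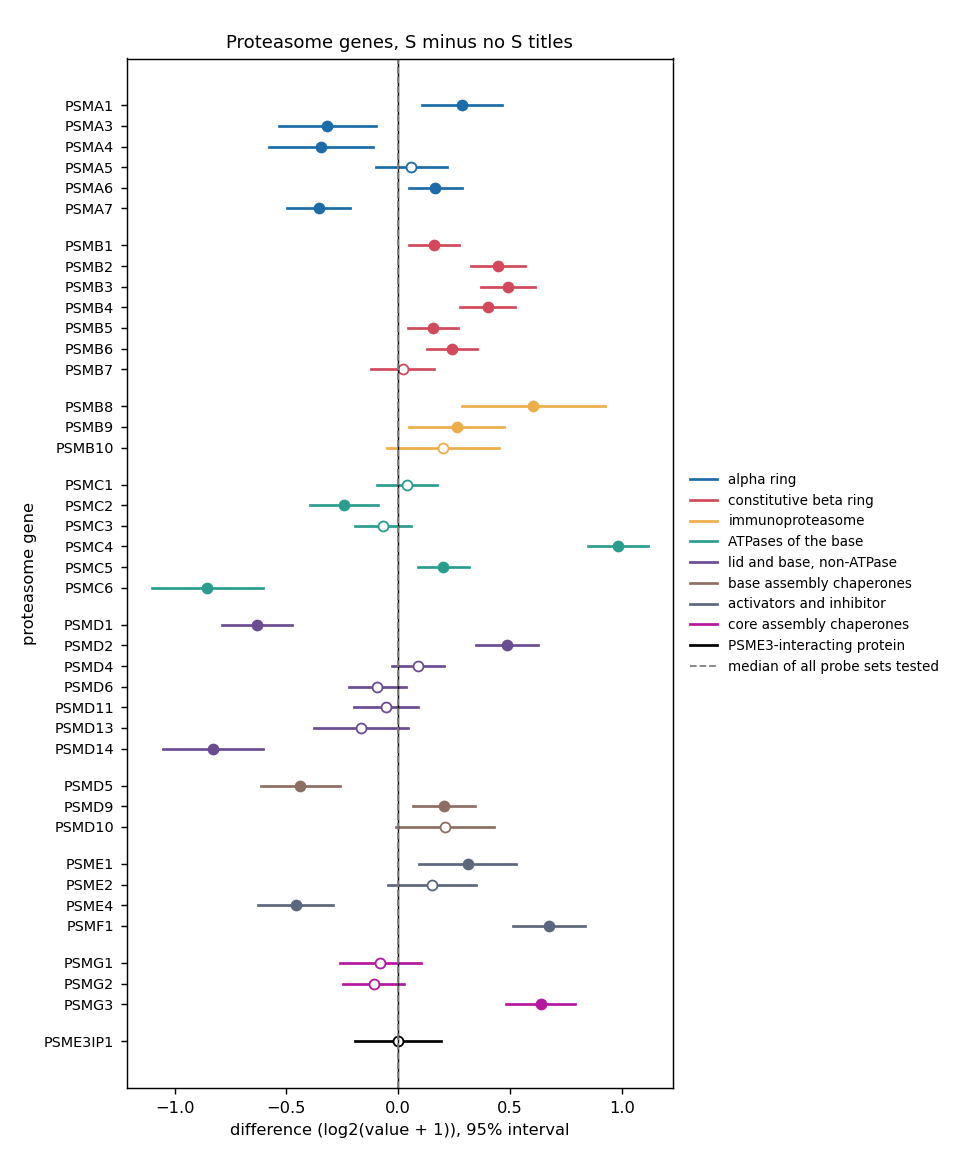
Difference between the S and the no S title series for each of the 40 genes (x axis, log2(value + 1) units, S minus no S), grouped and coloured by role, with 95% intervals from limma with IMF as a covariate, n = 10 per series. Filled points passed the adjusted threshold (26 genes). The beta ring genes lie at or to the right of 0, while the ATPases spread from -0.85 to 0.98.

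Constitutive beta ring genes were higher in S as a class, with 7 of 7 differences above 0, a median of 0.24 and 6 genes called. Over all 7016 genes with 1 tested probe set, 3994 differences were above 0, the median was 0.11, and 70.3% were called, 40.7% as higher. The 7 genes varied together from animal to animal, so their shared direction is not 7 separate observations. The mean of the 7 genes ran from 11.63 to 11.87 over the S animals and from 11.42 to 11.60 over the no S animals, which do not overlap. How often the means of other sets of 7 genes do so was not computed. PSMB3 had values of 11.77, 11.97 and 12.10 in S and 11.31, 11.43 and 11.62 in no S, a rise of 0.49 (SE 0.058, 1.41-fold, adjusted p = 2.94e-07), and every S animal lay above every no S animal. PSMB2, another beta subunit without a cutting site, ran through 10.74, 10.86 and 11.01 and 10.22, 10.40 and 10.55 in S and no S, again without overlap, and rose by 0.45 (adjusted p = 1.01e-06). PSMB4 was also free of overlap, with 12.38, 12.61 and 12.77 in S, 12.06, 12.21 and 12.30 in no S and a rise of 0.40 (adjusted p = 6.06e-06). Smaller rises were seen in the subunits with cutting sites and in PSMB1, which has none. PSMB6 ran through 11.95, 12.06 and 12.23 in S and 11.67, 11.86 and 12.02 in no S and rose by 0.24 (adjusted p = 0.000499). PSMB5 ran through 12.11, 12.23 and 12.35 and 11.96, 12.12 and 12.21 and rose by 0.16 (adjusted p = 0.0135). PSMB7, with 10.79, 11.07 and 11.21 in S and 10.82, 11.03 and 11.15 in no S, was the member of the ring that did not pass, and its 95% interval of -0.12 to 0.16 leaves out rises of the size of PSMB3. PSMB1 rose by 0.16. The calls of PSMB1 and PSMB5 were lost without the 4 albumin-rich arrays.

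The alpha ring, which forms the same barrel, went both ways. PSMA7 fell, with 11.92, 12.13 and 12.38 in S, 12.32, 12.45 and 12.62 in no S and a difference of -0.36 (adjusted p = 9.54e-05), and the ranges touched at their edges. PSMA4 ran through 9.07, 9.47 and 9.71 and 9.34, 9.75 and 10.13 and fell by 0.35 (adjusted p = 0.00939). PSMA3 ran through 10.11, 10.60 and 11.00 and 10.54, 10.89 and 11.25 and fell by 0.32 (adjusted p = 0.0104). In the other direction, PSMA1 ran through 10.88, 11.28 and 11.49 in S and 10.61, 11.00 and 11.23 in no S and rose by 0.28 (adjusted p = 0.00646), and PSMA6 rose by 0.17. PSMA5 did not pass, at 0.059. The calls of PSMA1 and PSMA6 were lost without the albumin-rich arrays.

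All 3 immunoproteasome subunits had higher means in S, and PSMB8 and PSMB9 passed. PSMB8 ran through 6.69, 7.23 and 7.55 in S and 5.78, 6.66 and 7.04 in no S, and rose by 0.60 (SE 0.15, 1.52-fold, adjusted p = 0.00158). PSMB9 ran through 7.40, 7.95 and 8.47 and 7.32, 7.70 and 7.96, and rose by 0.26 (adjusted p = 0.0275). The PSMB9 call was lost without the albumin-rich arrays, without the 2 S arrays with the highest BioB signal and without any 1 of high IMF replicates 2 and 7 and low IMF replicate 10. PSMB10 ran through 7.87, 8.13 and 8.48 and 7.10, 8.03 and 8.24, a difference of 0.20 with a 95% interval of -0.051 to 0.45. The calls of cell type markers stand beside 68.3% of all probe sets called, 33.4% higher and 34.8% lower. Of 5 tested macrophage markers 4 were called, all higher in S. Their median was 0.91, and their summed signal was 758 to 1172 in S and 344 to 958 in no S. LAPTM5 rose by 0.64 while PTPRC differed by -0.055, the summed leukocyte signal was 184 to 387 in S and 137 to 382 in no S, and 2 of 5 tested lymphocyte markers were called higher (summed signal 506 to 683 and 427 to 678). The adipocyte markers moved further: 6 of 6 were called, 5 of them higher, with a median of 1.59 and a summed signal of 1226 to 23345 in S and 1484 to 5832 in no S. Of the fibroblast markers 2 of 6 rose and 1 fell, and of the endothelial markers 2 of 5 rose. The part of these cells in the values of PSMB8, PSMB9 and the other members was not tested.

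The ATPases, which sit in a single ring, had the widest range of differences of the classes. PSMC4 had values of 10.39, 10.51 and 10.64 in S and 9.30, 9.50 and 9.81 in no S, so the series were far apart, and it rose by 0.98 (SE 0.065, 1.97-fold, adjusted p = 1.74e-10). PSMC6 had values of 9.08, 9.84 and 10.18 in S and 10.24, 10.57 and 10.98 in no S, with every S animal below every no S animal, and fell by 0.85 (SE 0.12, 1.81-fold lower, adjusted p = 2.85e-06). Both held within high IMF (0.92 and -0.93) and within low IMF (1.05 and -0.77). PSMC2 ran through 11.13, 11.45 and 11.67 in S and 11.48, 11.71 and 11.79 in no S and fell by 0.24 (adjusted p = 0.00595), a call that was lost with the arrays centred on their medians. PSMC5 ran through 11.08, 11.20 and 11.29 and 10.87, 11.03 and 11.09 and rose by 0.20 (adjusted p = 0.00279). PSMC1 and PSMC3 did not pass, at 0.039 and -0.069.

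**Figure D4:**
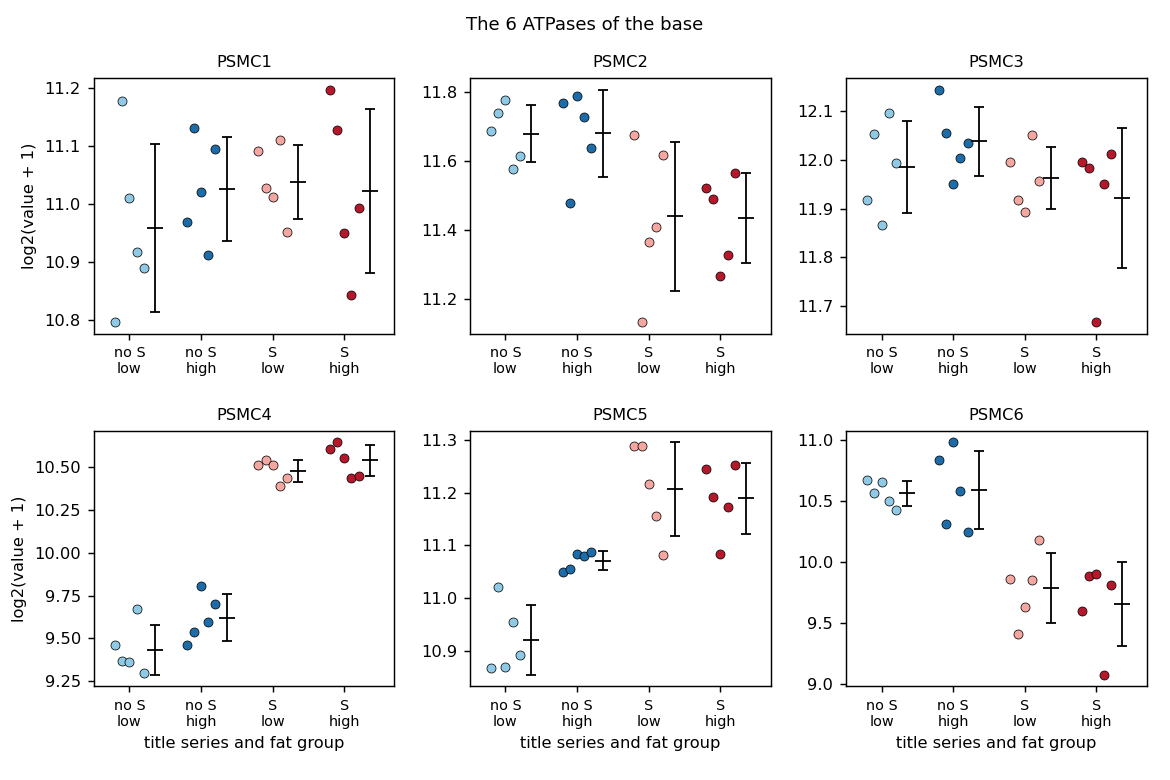
Values of the 6 ATPase genes in each animal (y axis, log2(value + 1), a separate scale per panel) by title series and IMF group (x axis, 5 animals each). Each point is 1 animal and the bars give the mean and SD of the 5. PSMC4 is higher in every S animal and PSMC6 lower in every S animal, while PSMC1 and PSMC3 overlap.

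A second probe set was present for 6 members, and it bears on how far these differences describe the gene. For PSMC6 it fell too, by 1.06, and followed the first probe set over the 20 animals (r = 0.98). For PSMC2 it differed by -0.29 (r = 0.90) and for PSMB2 by 0.61 (r = 0.98), both called in the direction of the first. For PSMD4 the second was called at 0.16 where the first, at 0.087, was not (r = 0.59). For PSMC5 the dimmer second probe set went the opposite way, at -0.21 (adjusted p = 0.0310 in limma, r = -0.22), so the direction of PSMC5 depended on the probe set. The dimmer probe set of PSMD6 differed by 0.024 and the brighter by -0.093 (r = -0.15). In the IMF comparison the second probe sets of all 6 were uncalled, from -0.12 for PSMC6 to 0.052 for PSMC2.

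In the lid and base, PSMD14 and PSMD1 fell and PSMD2 rose. PSMD14 had values of 9.29, 9.55 and 9.94 in S and 9.95, 10.38 and 10.79 in no S without overlap, and fell by 0.83 (1.77-fold lower, adjusted p = 1.10e-06). PSMD1, the scaffold that holds the receptor ADRM1, ran through 9.98, 10.10 and 10.26 and 10.40, 10.78 and 11.07, also without overlap, and fell by 0.63 (1.55-fold lower, adjusted p = 3.60e-07). PSMD2, the other large scaffold of the base, ran through 10.80, 10.97 and 11.10 and 10.28, 10.49 and 10.74 with every S animal higher, and rose by 0.49 (1.4-fold, adjusted p = 2.53e-06). The 2 scaffolds thus differed in direction within both IMF groups, PSMD1 at -0.69 and -0.57 and PSMD2 at 0.39 and 0.58 in high and low IMF. Uncalled differences were found for PSMD4 (0.087), PSMD6 (-0.093), PSMD11 (-0.055) and PSMD13 (-0.17).

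The assembly factors, the activators and the inhibitor included further members without overlap. PSMF1, the inhibitor, had values of 9.65, 9.76 and 9.98 in S and 8.87, 9.10 and 9.50 in no S and rose by 0.67 (1.59-fold, adjusted p = 2.15e-07). PSMG3 ran through 8.05, 8.24 and 8.52 and 7.44, 7.59 and 7.85 and rose by 0.64 (1.56-fold, adjusted p = 2.54e-07). Both lay wholly above the no S animals. The other core chaperones did not pass: PSMG2 ran through 10.01, 10.19 and 10.38 and 10.06, 10.30 and 10.42, a difference of -0.11, and PSMG1 differed by -0.081. PSME4 ran through 10.25, 10.50 and 10.88 in S and 10.86, 10.99 and 11.31 in no S and fell by 0.46 (adjusted p = 4.03e-05). PSME1 rose by 0.31 (adjusted p = 0.0120), while PSME2, its ring partner, did not pass at 0.15 (95% interval -0.044 to 0.35). Among the base chaperones, PSMD5 ran through 8.45, 8.79 and 9.04 and 8.89, 9.22 and 9.48 and fell by 0.44 (adjusted p = 0.000113). PSMD9 ran through 8.09, 8.36 and 8.64 and 8.09, 8.18 and 8.29 and rose by 0.20 (adjusted p = 0.0106), a call that was lost without the albumin-rich arrays. PSMD10, at 0.21, and PSME3IP1, with 7.91, 8.33 and 8.72 in S and 8.06, 8.27 and 8.66 in no S, did not pass.

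Apart from IMF and title series, the core particle genes tended to vary together from animal to animal. After the mean of each of the 4 combinations of IMF and title series was taken off, the 78 pairs among the 13 constitutive core genes had a median correlation of 0.41 over the 20 animals, and 96.2% of them were above 0. The median over all pairs of the 7016 genes was 0.080. These values are descriptions, since the genes share their arrays, any scaling and the labelling. The alpha ring (median 0.46) and the beta ring (0.37) were alike in this, and so were the immunoproteasome genes among themselves (0.44, 3 pairs). Other classes did so too: among themselves the core assembly chaperones had a median of 0.39 (3 pairs) and the lid and base genes 0.32 (21 pairs). The ATPases among themselves had a median of 0.12, the base chaperones 0.012, and the activators and inhibitor -0.050. Between the core particle and the lid and base the median was 0.068. Single regulatory genes followed the core closely even so. Against the mean of the core genes, PSMC2 correlated at 0.87, PSMC6 at 0.83 and PSMD14 at 0.73, beside 0.80 for PSMB4, 0.76 for PSMB7 and 0.75 for PSMA3, each compared with the other 12 core genes. The core chaperones PSMG1, PSMG2 and PSMG3 correlated at 0.57, 0.62 and 0.62, the activators PSME4 and PSME2 at 0.56 and 0.53, and PSMD10 at 0.52. At the other end, PSMD13 correlated at -0.50, PSMF1 at -0.30, PSMD2 at -0.26 and PSMC5 at -0.20.

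**Figure D5:**
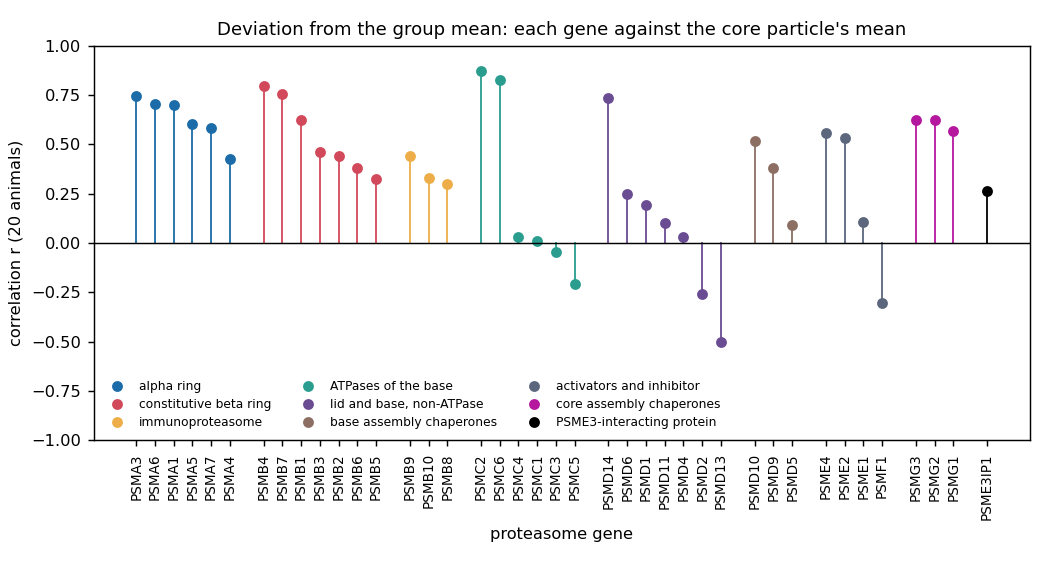
Correlation r over 20 animals (y axis) between each member (x axis, grouped and coloured by role) and the mean of the constitutive core particle genes, leaving out the member itself, after the means of the 4 combinations of IMF and title series were taken off. All core genes lie above 0, whereas the regulatory genes run from -0.50 for PSMD13 to 0.87 for PSMC2.

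Of 10 pairs of members compared directly over the 20 animals, 4 passed for Pearson's r and 3 for Spearman's rho, by permutation test with 100000 resamples and Benjamini-Hochberg adjustment over the 10. With the arrays centred on their medians 6 passed for r and 5 for rho. These pooled values include the differences between the title series. PSMB8 and PSMB9, which neighbour each other with TAP1 between them in the RefSeq cattle annotation, had r = 0.71 (p = 0.00034, adjusted p = 0.0017) and rho = 0.78 (p = 0.00013, adjusted p = 0.0007), and r was 0.70 without the 2 animals farthest from the median of PSMB8. PSMB5 and PSMB6 had r = 0.72 (p = 0.00029, adjusted p = 0.0017) and rho = 0.77 (p = 0.00014, adjusted p = 0.0007), and r was 0.65 without the 2 farthest animals. PSMB7 and PSMB10 had r = 0.56 (p = 0.0102, adjusted p = 0.0254) and rho = 0.48 (p = 0.0321, adjusted p = 0.0689), with r = 0.32 without the 2 farthest animals. PSME1 and PSME2, separated by EMC9 in the annotation, had r = 0.59 (p = 0.00717, adjusted p = 0.0239) but rho = 0.31 (p = 0.184, adjusted p = 0.184). Their r was 0.30 without the 2 farthest animals, so the relation rested on those. Within a single title series 0 of the 10 pairs passed for r or for rho (at an unadjusted p under 0.05, 3 did in S for each, and 0 for r and 1 for rho in no S), with r for PSMB8 and PSMB9 of 0.72 in S (adjusted p = 0.154) and 0.55 in no S (adjusted p = 0.277), and for PSMB5 and PSMB6 of 0.25 and 0.42 (adjusted p = 0.493 and 0.464) by the same permutation test with 10 animals each. Without the 2 animals of the series farthest from the median of PSMB8, r for PSMB8 and PSMB9 was 0.15 in S and 0.40 in no S. For PSMB5 and PSMB6, without the 2 farthest by PSMB5, it was 0.34 and 0.26. The other 6 pairs had r from 0.25 to 0.47 over all animals. Of these, PSMB8 and PSMB10 passed for rho (0.57, p = 0.00951, adjusted p = 0.0317) and not for r (0.47, p = 0.0387, adjusted p = 0.0773). PSMB7 passed with both other constitutive cutting subunits after centring, with PSMB5 at r = 0.61 (adjusted p = 0.0115, 0.25 uncentred) and with PSMB6 at r = 0.67 (adjusted p = 0.00513, 0.42 uncentred), both by permutation test. For the exchanged pairs PSMB8 with PSMB5 and PSMB9 with PSMB6, r over all animals was 0.33 and 0.42 uncentred (adjusted p = 0.170 and 0.0792, permutation test). Within S it was -0.56 and 0.25, and within no S it was -0.093 and -0.21. The exchanged pair PSMB10 with PSMB7 had r = 0.66 in S and 0.61 in no S.

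Genes that work beside the proteasome were likewise uncalled for IMF. In 7 lists (further proteasome parts and binding proteins, regulators of proteasome genes, ubiquitin activation, shuttle factors, muscle ubiquitin ligases, class I peptide loading, and interferon regulators and targets) 0 of 47 tested genes passed the adjusted threshold, against 0% of all probe sets. Without adjustment 5 of the 47 (10.6%) were under 0.05, against a background of 7.34%. ZFAND5, a proteasome-binding protein known from muscle atrophy, differed by -0.24 (SE 0.074, unadjusted p = 0.00419, adjusted p = 0.676 in limma). The ligase UBE3A differed by -0.20. Of the regulators, NFE2L2, the oxidative stress factor, was at -0.21 and its partner MAFF at 0.27. Of the muscle ligases, FBXO32, a ligase of muscle atrophy, was at -0.22 and FBXO40 at -0.27, and 6 of 7 in that list were lower in high IMF with a median of -0.046. TAP2, a subunit of the peptide transporter, was at -0.51 (SE 0.22, adjusted p = 0.676), and the chaperone CALR at 0.26. Among the shuttle factors UFD1 was at 0.15 and UBQLN2 at -0.077, and the ubiquitin-activating enzyme UBA1 was at -0.00074. The interferon list had 6 of 7 genes lower with a median of -0.13, among them IRF8 at -0.26 and STAT2 at -0.15.

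Between the title series 32 of the 47 genes of these lists (68.1%) were called, against 68.3% of all probe sets. Of 12 proteasome parts and binding proteins, 3 rose and 6 fell. ADRM1, a ubiquitin receptor of the base, rose by 0.91 (adjusted p = 8.48e-10), while USP14 and UCHL5, the deubiquitinases that dock on the base, fell by 0.57 and 0.63, UBE3A by 0.91 and ZFAND5 by 0.58. Among 6 regulators, STAT3 and KEAP1 rose by 0.96 and 0.42, NFE2L2 and MAFG fell by 1.05 and 0.37, and NFE2L1, the factor that restores proteasome genes after inhibition, did not pass at -0.16. UBA1 rose by 0.91. Of 6 shuttle factors, UBQLN4 rose by 1.11, and UBQLN1 and RAD23B fell by 0.53 and 0.53. All 7 muscle ligases passed, 4 of them higher, with STUB1 up by 0.88, MUL1 by 0.76 and ASB2 by 0.53, and ASB5 down by 1.28 and FBXO32 by 0.81. In peptide loading TAPBP and CALR rose by 0.80 and 0.50, PDIA3 and CANX fell by 0.22 and 0.37, and the transporter genes TAP1 and TAP2 did not pass at 0.16 and -0.088. In the interferon list 4 of 7 rose, ISG15 by 1.40, IRF9 by 0.83, IRF8 by 0.41 and STAT2 by 0.36.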

How the data were processed

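Total RNA of Musculus longissimus dorsi from 20 bulls was hybridized to Affymetrix bovine arrays, 1 per animal. The authors deposited linear intensities per probe set. Their probe summarisation and any scaling between arrays are not stated in the sources used here. Per the submitters' processing notes, GCOS 1.1.1 and Affymetrix Expression Console 1.1 were used. From the 24128 probe sets 112 array controls were removed, the deposited intensities were converted to log2(value + 1), and the 40% with the lowest mean were left out, which left 14409. Of the 24016 probe sets, 13292 had 1 gene symbol in the platform annotation, 86 several and 10638 none. Folds understate changes of dim probe sets, and the number of arrays limits the precision.

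IMF and title series were fitted together with limma 3.58.1 in R 4.3.3, two-sided, with Benjamini-Hochberg adjustment at 0.05, and the interaction was fitted separately. The series text names a paired t-test, but the labels pair no animals, so all fits were unpaired. The code was tested on simulated data. Every member is accounted for by class. Values over animals are given for PSMB5 to PSMB10, for the members past the threshold (up to 20 by smallest p) and for the 2 of each class with the smallest p in each comparison, and from each gene list the 2 with the smallest p and up to 5 past the threshold were named. Members and lists were chosen with earlier results of these data known. For pairs of members, two-sided permutation tests used 100000 resamples. Alternatives covered scaling, pseudocount, filter, probe set choice, covariate, test, each title series or IMF group alone and each array left out. Fits without the albumin-rich, the dimmest and the S arrays with the highest BioB signal were added after the data were seen. No genome build is stated, so RefSeq was used for names and neighbours only.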

Additional observations from a re-analysis of the deposited data

Results flagged for a closer look

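In 4 of 80 groups of 10 values (40 members in each IMF group), 1 animal stood apart from the nearest other by more of the group's whole range than the 95% critical value of Dixon's test allows. Chance gives about 1 in 20 groups of like samples. Each group here mixes 5 S and 5 no S animals, which widens the range of members that differ between the series, so that share does not hold for these groups. PSMB10 in low IMF replicate 2 (no S) was 7.10, with the next animal at 7.89 and a group median of 8.08. PSME1 in the same animal was 9.67, with the next at 10.32 and a group median of 10.47, and PSME2, at 9.19, was also the lowest there of the 20 animals. PSMB9 in low IMF replicate 10 (S) was 8.47, with the next at 8.06 and a group median of 7.91. PSMC3 in high IMF replicate 8 (S), one of the albumin-rich arrays, was 11.67, with the next at 11.95 and a group median of 12.00.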

How the results depend on the processing

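No paired analysis was possible because the labels pair no animals. The IMF comparison called 0 members under every alternative that was run, and the members above 0 numbered 26, with 24 to 29 when each array was left out in turn. The S comparison called 25 to 27 members (62.5% to 67.5%) when each array was left out, against 66.4% to 68.1% of all probe sets. All 40 members passed the filter, which changes no member's difference but does change limma's p-values.

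Counts that moved by over 1.5 times and class medians that moved by more than their SD between animals were these, and the cause was not tested. Within high IMF, with fewer animals, 14 members (35%) were called between the title series, against 50.8% of all probe sets, and 8 of them were higher. Within low IMF, where 20 were called (12 higher) against 55.0%, the counts moved by less than that limit. Without the albumin-rich arrays 11 were called higher, which is 55% of the members called there, against 49.0% of all probe sets called there. The S median of the beta ring was 0.31 with centred arrays, and that of the core assembly chaperones was -0.19 within high and 0.048 within low IMF. The IMF median of activators and inhibitor was -0.12 within S. Of the pairs of members, 0 passed within S and 0 within no S, against 4 over all animals and 6 with centred arrays. Smaller moves included the members' IMF median, which was 0.067 with centred arrays (0.028 as reported) and 0.018 to 0.046 with each array left out, the ends being without low IMF replicate 5 and without high IMF replicate 9. The immunoproteasome IMF median ran from -0.23 to -0.076 in the same way, and was -0.017 without the 2 arrays with the lowest median signal.

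Single differences that changed sign were uncalled in the IMF comparison. With centred arrays these were PSMA3 at 0.0047, PSMC2 at 0.037, PSMD1 at 0.017, PSMD11 at 0.013, PSMD6 at 0.039, PSMD9 at 0.021, PSME1 at 0.014 and PSMF1 at 0.012. With quantile normalization they were PSMC2 at 0.0054, PSMD6 at 0.0090 and PSMD9 at 0.019, and with the mean of all probe sets PSMC2 at 0.025. Within S they were PSMA3 at 0.048, PSMB4 at -0.015, PSMC1 at -0.016, PSMC3 at -0.041, PSMC5 at -0.017, PSMD2 at -0.059, PSMD4 at -0.077, PSMG2 at -0.069 and PSMG3 at -0.063. Within no S they were PSMC2 at 0.00076, PSMC6 at 0.027, PSMD1 at 0.034, PSMD11 at 0.036, PSMD14 at -0.025, PSMD6 at 0.0080, PSMD9 at 0.032, PSME1 at 0.026, PSME3IP1 at 0.0026 and PSMF1 at 0.11. Without the albumin-rich arrays they were PSMC2 at 0.0031, PSMD14 at -0.032 and PSMD6 at 0.011. Without the 2 arrays with the lowest median signal they were PSMC2 at 0.0011, PSMC3 at -0.0018, PSMC6 at 0.048 and PSMD9 at 0.034. Without the 2 S arrays with the highest BioB signal they were PSMC3 at -0.00045, PSMD14 at -0.025, PSMF1 at 0.0011 and PSMG2 at -0.0095. With each array left out in turn, the ranges that crossed 0 were PSMA3 from -0.092 to 0.013, PSMB10 from -0.052 to 0.087, PSMC2 from -0.038 to 0.026, PSMC3 from -0.011 to 0.039, PSMC6 from -0.10 to 0.019, PSMD1 from -0.063 to 0.015, PSMD11 from -0.053 to 0.0041, PSMD14 from -0.046 to 0.053, PSMD4 from -0.0015 to 0.038, PSMD6 from -0.021 to 0.019, PSMD9 from -0.049 to 0.016, PSME1 from -0.098 to 0.015 and PSMG2 from -0.019 to 0.032.

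In the S comparison the called difference that changed sign was that of PSMC5, at -0.0061 with the mean of all probe sets of a gene, which averages its opposed probe sets. The uncalled ones were PSMD11 at 0.011 and PSME3IP1 at 0.065 with centred arrays, PSME3IP1 at 0.045 with quantile normalization, PSMA5 at -0.0097, PSMB7 at -0.0030, PSMC1 at -0.0029 and PSMD4 at -0.011 within high IMF, and PSMD11 at 0.0075, PSME3IP1 at 0.16 and PSMG1 at 0.048 within low IMF. They also included PSMB7 at -0.010 and PSME3IP1 at 0.029 without the albumin-rich arrays and PSME3IP1 at 0.064 without the 2 arrays with the lowest median signal. With each array left out, PSMB7 ran from -0.0023 to 0.052 and PSME3IP1 from -0.044 to 0.036.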
